A study of Homo sapiens with 2 samples.

Results

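Expression of 7 corepressor genes was followed, out of 113 pathway genes on a membrane array for human Wnt signalling. They were chosen by the symbol printed on the array, and comprise 4 full-length Groucho genes (TLE1, TLE2, TLE3 and TLE4), the short Groucho gene AES (current symbol TLE5) and 2 genes of C-terminal binding proteins (CTBP1 and CTBP2). RNA came from SW480, a human colorectal adenocarcinoma line. One stable line carried an empty vector with green fluorescent protein (GFP), and the other carried hiNOS (an inducible nitric oxide synthase) as well as GFP. Both were thus GFP-positive, sorted on it and grown on for weeks before extraction. The promoter driving hiNOS, and whether each line was a single clone, are not given in the sources used here. There was 1 array for each line, so no value below has a replicate and no test was possible. Each difference describes these 2 arrays.

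Groucho proteins do not bind DNA themselves. TCF/LEF factors recruit them to Wnt target genes through an amino-terminal glutamine-rich domain, and beta-catenin displaces them when the pathway is active. Full-length members also carry carboxy-terminal WD repeats that bind other repressors, whereas AES ends before the repeats and is known both as a partner and as an antagonist of the longer proteins. CtBP proteins are corepressors of another family, related to dehydrogenases and sensitive to NADH, that bring histone-modifying enzymes to repressors carrying a short docking motif. SW480 cells have truncated APC and an active Wnt pathway.

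TLE1 and TLE4 were the members whose spots differed most between the lines, and both were dimmer with hiNOS. AES was among the brightest genes of both arrays, and TLE2, TLE3, CTBP1 and CTBP2 gave no signal above background on either. The stretches upstream of the RefSeq start of TLE4 and TLE1 (outermost start, 250 bases each, GRCh38.p14, 5′ to 3′ on the gene's strand) are shown because these are the members that differed. Capitals mark the core that TCF/LEF factors read, CTTTGA, or its reverse complement TCAAAG. TLE4 lies on the plus strand and its stretch is chr9:79571715-79571964. TLE1 lies on the minus strand of the same chromosome and its stretch is chr9:81689548-81689797.
TLE4: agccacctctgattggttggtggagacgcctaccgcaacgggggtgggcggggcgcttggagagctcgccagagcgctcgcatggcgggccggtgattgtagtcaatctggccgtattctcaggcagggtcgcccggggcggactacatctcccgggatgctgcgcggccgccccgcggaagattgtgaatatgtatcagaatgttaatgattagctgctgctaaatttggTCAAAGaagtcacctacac
TLE1: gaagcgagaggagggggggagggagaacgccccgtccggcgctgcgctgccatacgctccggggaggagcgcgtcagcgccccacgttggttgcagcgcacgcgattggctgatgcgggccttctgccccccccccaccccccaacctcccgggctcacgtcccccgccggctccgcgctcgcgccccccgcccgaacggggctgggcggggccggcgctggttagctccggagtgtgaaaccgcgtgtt
The TLE4 stretch holds TCAAAG once, its first base 19 bases before the start, and the stretch of TLE1 holds neither form. RefSeq gives 18 such stretches for the 7 genes. The core lies in 3 of them: both of TLE4 and 1 of the 2 of AES. Of all 35116 stretches in the table, 11.2% hold it on either strand. A match is a description of the letters only, and no binding was measured.

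**Figure D1:**
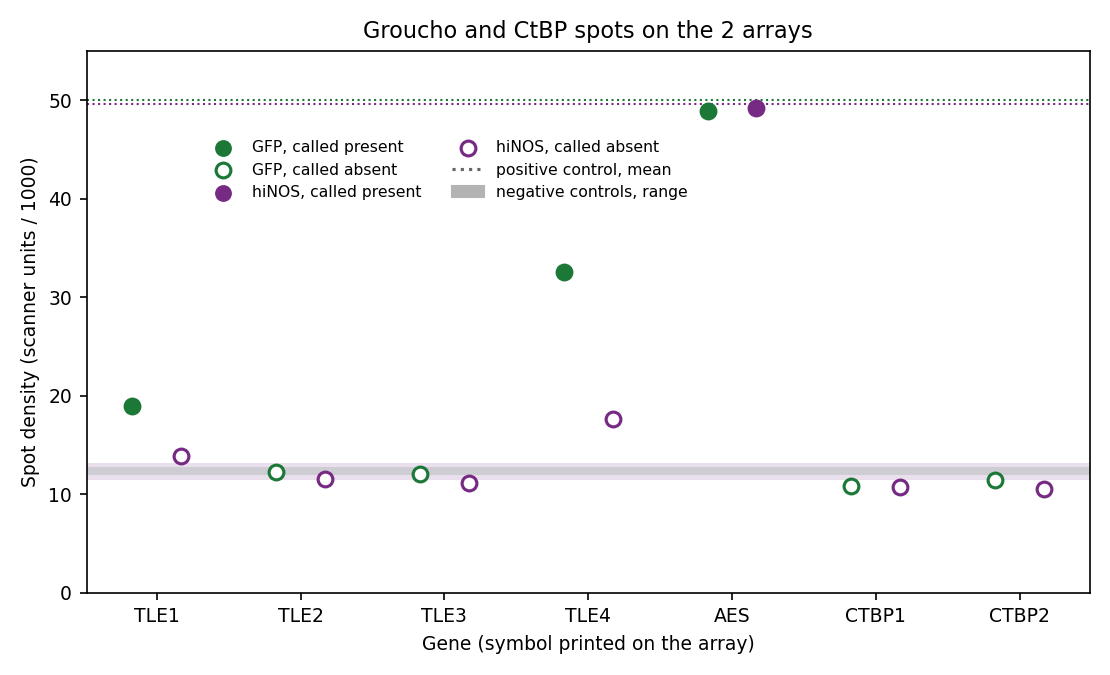
Spot density (scanner units divided by 1000) for the 7 genes on the GFP array (green) and the hiNOS array (purple). Filled points were called present and open points absent; bands span the 6 negative-control spots of each array and dotted lines mark the mean of the positive control. TLE4 falls between the bands and the dotted lines on the GFP array and much closer to the bands on the hiNOS array, while AES sits by the dotted lines on both.

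The arrays gave a density for each of 128 spots, with no background removed. The 6 negative-control spots (blanks, a plasmid and artificial sequences) spanned 11986 to 12779 units with GFP and 11408 to 13214 with hiNOS. The positive control averaged 50047 and 49565 units. A spot had to pass 1.5 times a local background to be called present by the authors' software, and 3 of the 7 members passed with GFP (46.9% of all 113 genes did) and 1 of 7 with hiNOS (45.1%). In all, 3 of 7 were present on at least 1 array (52.2% of genes) and 4 were absent on both (47.8%). The same 3 members were brighter than every negative control on at least 1 array, as were 72.6% of genes. None of the members was called a bleeding spot. Markers of intestinal epithelium or of other cell types were looked for, and 0 of 9 are on this array, so the identity of the cells was not checked. NOS2, the gene of the enzyme, is not on the array either.

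Among the full-length Groucho genes, TLE4, a TCF-binding corepressor, had a density of 32539 units with GFP and 17654 with hiNOS. With the mean of the 2 blank spots subtracted (12750 and 12336 units), 19789 and 5318 units were left. It was called present with GFP and absent with hiNOS, where it fell 871 units short of the dimmest present gene, CSNK1G1. Both densities were above every negative control. Relative to its own array's reference spots (GAPDH and ACTB, treated alike), TLE4 stood at 54.6% of these references with GFP and at 14.6% with hiNOS. The ratio was 3.74-fold lower with hiNOS (log2 ratio -1.90). Set against the dimmest present gene instead, as its hiNOS spot was called absent, TLE4 was at least 3.21-fold lower if the blank mean is taken as exact. Without any subtraction the density ratio was 1.83-fold lower and its bound 1.75-fold. A shared background under both spots pulls such a ratio towards 1 by construction.

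TLE1, a close relative of TLE4 with the same domain order, had 18982 units with GFP and 13878 with hiNOS. It was the dimmest gene called present on the GFP array, where the brightest absent gene, WNT2B, had 17897 units, and it was absent on the hiNOS array. After subtraction 6232 and 1542 units were left, or 17.2% and 4.23% of the references. That makes TLE1 4.06-fold lower with hiNOS (log2 ratio -2.02), but the hiNOS value is smaller than the 1806 units that separate the lowest and highest negative control of that array. The bound from the dimmest present gene is 1.01-fold, so the size of the TLE1 difference is hardly constrained. Subtracting the lowest or highest negative control of each array, in the 4 possible pairs, put TLE1 between 2.59-fold and 10.1-fold lower, and TLE4 between 3.26-fold and 4.45-fold lower. TLE4 is therefore the member whose fold depends less on the background spot subtracted. With 1 array for each line, the precision of either difference was not measured. In these bulk RNA samples, fewer transcripts per cell and fewer cells with the transcript cannot be told apart.

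TLE2 and TLE3, the other full-length Groucho corepressors, were called absent on both arrays. TLE2 had 12222 units with GFP, dimmer than 3 of the 6 negative controls, and 11522 with hiNOS, dimmer than 5 of them. TLE3 had 12100 units with GFP, dimmer than 5 negative controls, and 11165 with hiNOS, dimmer than all 6. No fold is given for either gene, since both lay below the blank mean on both arrays. On the density scale the log2 ratio was -0.08 for TLE2 and -0.11 for TLE3, inside the range of the 6 negative controls (-0.11 to 0.11).

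AES, the short Groucho gene, had 48901 units with GFP and 49166 with hiNOS, a difference of 264 units. Its spot was the brightest of the 113 genes on the hiNOS array and ranked 6 on the GFP array. These densities are 97.7% and 99.2% of the positive control, and 19 genes in all (16.8%) lay within 10% of it on both arrays, with log2 density ratios between -0.05 and 0.06. After blank subtraction AES had a log2 ratio of 0.02, which became -0.16 when the arrays were scaled to the median gene, -0.00 with GAPDH alone and 0.10 on the deposited scale. Whether a spot this close to the positive control could register a higher level was not tested. All 3 reference spots of GAPDH and ACTB lay in the same range, between 47374 and 50151 units, and all 3 were called bleeding on each array.

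The CtBP genes gave no measurable signal. CTBP1 had 10887 units with GFP and 10744 with hiNOS, and CTBP2 had 11494 and 10516. All 4 densities were below every negative control of their array, and 17 genes in all (15.0%) lay this low on both arrays. CTBP2 ranked 112 of 113 on the hiNOS array, and CTBP1 ranked 109 on both. Their log2 density ratios were -0.01 and -0.12. That of CTBP2 lay just outside the range of the 6 negative controls (-0.11 to 0.11). It lay inside that of the 54 genes absent on both arrays (-0.41 to 0.36). A spot this dim does not show that a transcript is missing, because each probe has its own efficiency and sequences of the probes were not used here.

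**Figure D2:**
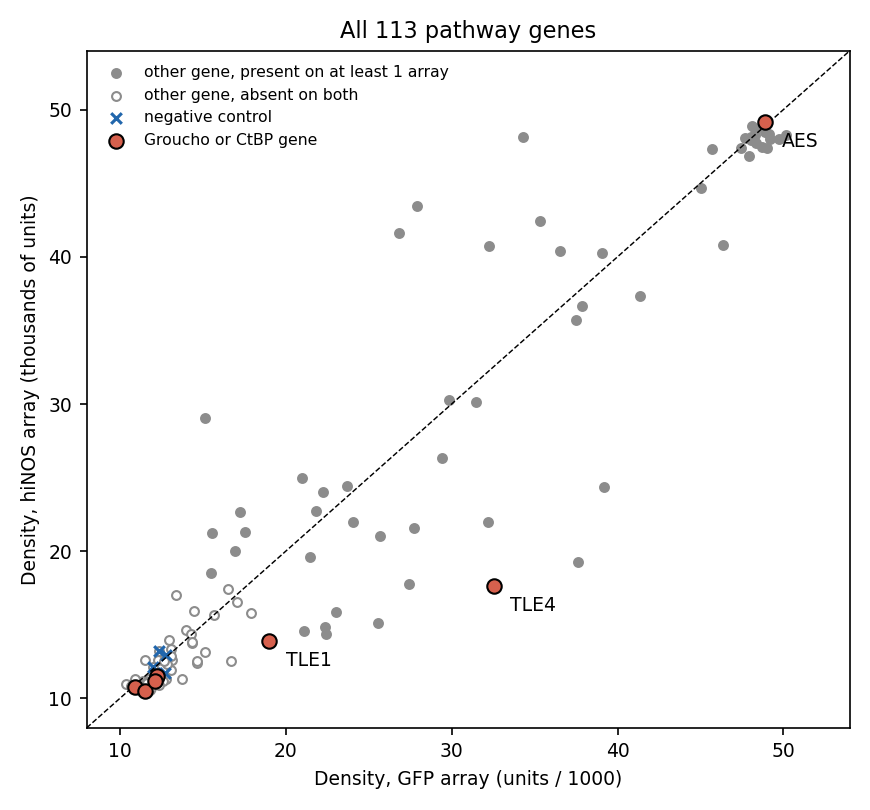
Density of each of the 113 genes on the GFP array against the hiNOS array, in units divided by 1000, with the line of equal density dashed. TLE4 (32539 and 17654 units) and TLE1 (18982 and 13878 units) lie below the line, AES lies at the top end, and the other 4 members lie at or below the negative controls (crosses), with CTBP1 and CTBP2 below all of them on both arrays.

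Read within each array, AES lay near the top of the density range and both CtBP genes near the bottom. The full-length TLE genes spread from 12100 to 32539 units with GFP and from 11165 to 17654 with hiNOS. TLE2 and TLE3 were without signal, like the CtBP genes, so the order among these 4 spots carries little. On the GFP array AES ranked 6 of 113, the full-length TLE genes ranked 31 (TLE4), 53 (TLE1), 91 (TLE2) and 94 (TLE3), and the CtBP genes ranked 104 and 109. On the hiNOS array AES ranked 1, the TLE genes 53, 68, 87 and 95 in the same order, and the CtBP genes 112 (CTBP2) and 109 (CTBP1). The order of the 4 TLE genes was thus alike on both arrays, although TLE2 and TLE3 differed by only 121.4 units with GFP and 357.0 with hiNOS. These ranks describe spots. Density depends on the probe as well as on the transcript, so they give no order of transcript levels between genes.

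Of the 7 members, 6 had a lower density with hiNOS, as did 62.8% of all 113 genes. Over the 7 members the median log2 density ratio was -0.11, and over the 113 genes it was -0.04. The median of the members is the value of TLE3, a spot without signal, so it says little of their expression. For the 4 members absent on both arrays the direction carries little, since 70.4% of the 54 genes absent on both arrays were dimmer with hiNOS. TLE1 and TLE4 were 2 of the 8 genes that were present with GFP and absent with hiNOS, a pattern of 7.08% of genes, while 0 members showed the opposite pattern (5.31% of genes). By the 2-fold rule after blank subtraction, 2 members were lower and 0 higher, against 18.6% and 10.2% of the 59 genes present on at least 1 array. Both members entered that set through the GFP array alone, so a lower ratio with hiNOS was largely fixed by the call. With genes absent on 1 array at their bound, 1 member (TLE4) was 2-fold lower, as were 10.2% of the 59 genes, and 0 were 2-fold higher (5.08%). Without subtraction 0 members were, as was 0.0% of the genes.

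**Figure D3:**
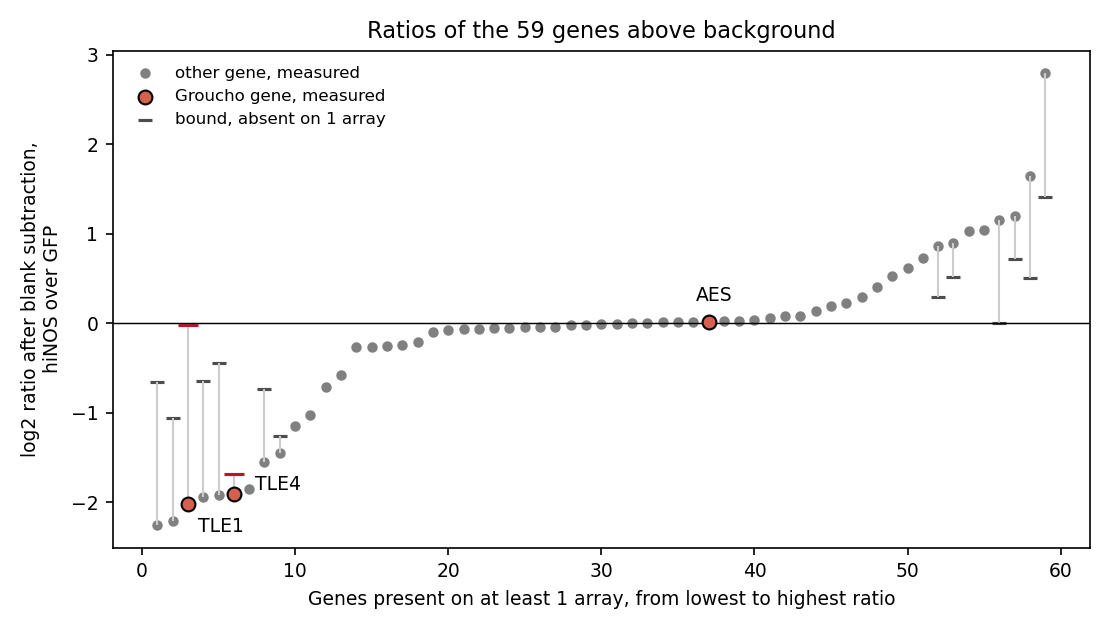
Log2 ratio of hiNOS over GFP after blank subtraction for the 59 genes present on at least 1 array, in ascending order; short bars give the bound for genes absent on 1 array. TLE1 has the third place from the low end by measured ratio (-2.02) but a bound near 0 (-0.02), whereas the bound of TLE4 (-1.68) stays close to its measured ratio (-1.90).

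In the order of all 59 genes by measured ratio TLE1 was ranked 3 and TLE4 6 from the low end. With bounds in place of measured ratios TLE4 was ranked 2, behind APC2 at -1.85 on the log2 scale, and TLE1 moved to rank 28. The genes with the log2 ratios nearest to that of TLE4 were PPP2CA (-1.91), a catalytic subunit of protein phosphatase 2A, and FRZB (-1.94), a secreted Wnt antagonist. The same 2 genes lay nearest to TLE1, and both were also absent with hiNOS. For AES the nearest genes were PPP2R1A (0.02), a scaffold subunit of the same phosphatase, and DVL1 (0.02), a Dishevelled gene. With 2 arrays, such likeness is a single ratio and says nothing of shared control.

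For genes past a 2-fold limit, the authors' deposited table names 23 of the 113 genes as under-expressed with hiNOS, and TLE1 and TLE4 are among them. By the 2-fold rule after blank subtraction used here, 11 of 59 genes were lower. Both counts come from the same 2 arrays, so the listing is no separate evidence. The authors' deposited table gives ratios of 0.261 for TLE1 and 0.283 for TLE4, each with the remark that the gene was absent in at least 1 line. None of the 16 genes, of 113, that the authors' deposited table lists as over-expressed is a member. The normalized values deposited beside it are 0.76 and 0.20 for TLE1, 2.41 and 0.68 for TLE4, and 4.40 and 4.73 for AES (GFP first), while the values of TLE2, TLE3, CTBP1 and CTBP2 lie below 0 on both arrays.

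TCF genes, whose products bring these corepressors to DNA, had ratios near 1. Of other genes of the TCF complex and its regulators, 14 were on the array and 6 were present on at least 1 array. After blank subtraction 2 of these 6 were at least 2-fold higher with hiNOS and 0 lower. Over the 59 genes 10.2% were higher and 18.6% lower. The median log2 ratio of these 6 genes was 0.13, beside -0.01 over the 59. The transcription factor gene TCF7L2 had 39093 units with GFP and 40278 with hiNOS (log2 ratio 0.08). TCF7L1, a TCF that acts mainly as a repressor, had 37515 and 35687 units (-0.09). TCF7 had 21845 and 22759 units (0.19), and PYGO2, a coactivator bound through BCL9, had 45689 and 47317 units (0.08). The 2 higher genes were both absent with GFP and entered through the hiNOS array alone, so a higher ratio was largely fixed by the call. The median of the 6 genes includes them. CTNNBIP1, whose product keeps beta-catenin off TCF, had 15149 units with GFP and 29055 with hiNOS, at least 2.67-fold higher. CTNNB1, the gene of beta-catenin, had 17226 units with GFP and 22673 with hiNOS, at least 1.65-fold higher, so it passed 2-fold only by its measured ratio of 2.30-fold. LEF1, NLK, BCL9, PYGO1, EP300, SENP2, CXXC4 and SOX17 were absent on both arrays.

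Of 15 genes that the complex is known to control, 9 were present on at least 1 array. Of these, 1 was 2-fold higher and 1 was 2-fold lower with hiNOS, beside the same 10.2% and 18.6% over the 59 genes. NKD1, an antagonist of Dishevelled, had 26856 and 41641 units and was 2.07-fold higher, just past the limit. It was not 2-fold higher without subtraction or with scaling to the median gene, where 0 and 3 of the 59 genes were. MYC, a growth-promoting transcription factor gene, had 23002 units with GFP and 15870 with hiNOS, where it was absent. It was 2.92-fold lower by the measured ratio and at least 1.66-fold lower by its bound. MYC entered through the GFP array alone, so a lower ratio was largely fixed by the call. The median log2 ratio of these 9 genes was -0.02, beside -0.01 over the 59 genes. The median of the 9 is the value of CCND1 (49108 units with GFP, 48373 with hiNOS). That of the 59 is the value of DVL3 (48880 and 48487 units). Both spots lay near the positive control on both arrays, as did AXIN2, CCND3 and FOSL1. Whether spots this bright could register a difference was not tested.

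**Figure D4:**
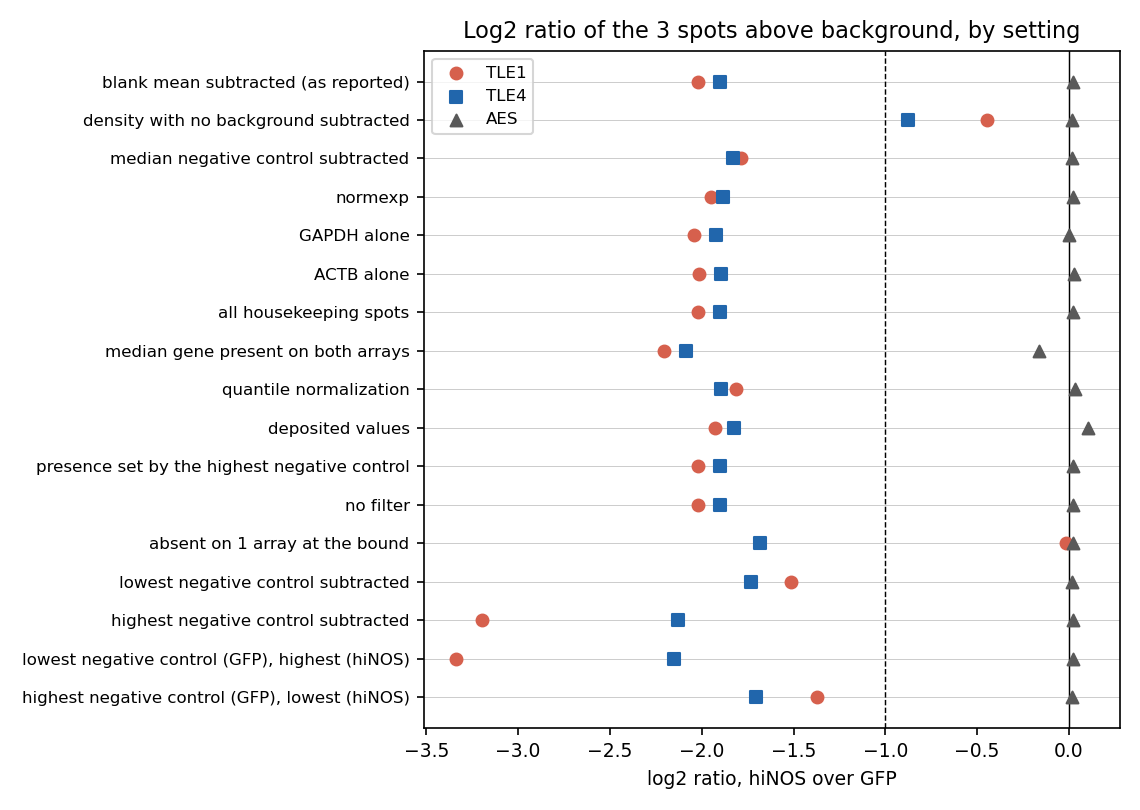
Log2 ratio of hiNOS over GFP for TLE1, TLE4 and AES under each treatment of background, scaling and presence; the solid line marks no difference and the dashed line a 2-fold lower ratio. TLE4 runs from -2.15 to -0.88 and TLE1 from -3.34 to -0.02, while AES stays between -0.16 and 0.10.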

How the data were processed

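Per the labels, cRNA carrying biotin was made from total RNA of each line, with 1 array per line. Per the series text, GEArray Expression Analysis Suite 2.0 was used to read the scans. Per the file headers, each deposited intensity is an average density per spot, with nothing subtracted. A second deposited intensity table equals density less the mean of blank positions 116 and 117, over the mean of the middle part of all spots; this rule gave its values to within 0.00499. The authors' deposited fold table was treated as a score, since some of its values are negative. The authors' software called a spot absent under 1.5 times a local background (mean over spots in the lower 75 percentile), and bleeding when within 30% of its own background, per the file headers.

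From density, the blank mean was subtracted, the result was divided by the GAPDH and ACTB spots (3 per array) treated alike, and hiNOS was set over GFP. GAPDH and ACTB are the references the series text names. A gene absent on 1 array was also given a bound, in which that array's dimmest present gene replaced its own dim value where that was lower. Each bound takes the blank mean as exact, so "at least" holds only under that subtraction. Alternatives used limma 3.58.1 in R 4.3.3 (normexp with offset 50, quantile), and the arithmetic was checked on simulated data in Python 3.11.15. All 7 members matched RefSeq accessions of the current annotation, whose promoter table supplied the sequences. The number of arrays limits the precision. All 7 members are named by rule, with other genes of the TCF complex and its regulators. Known targets of the complex past 2-fold are also named, as are the 2 genes nearest in ratio to each member above background. Members, lists and settings were chosen with earlier results of these data known.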

Additional observations from a re-analysis of the deposited data

How the results depend on the processing

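The count of members 2-fold lower with hiNOS was 2 and fell to 0 with no background subtracted and to 1 (TLE4) with genes absent on 1 array at their bound. It stayed at 2, TLE1 and TLE4, under the other alternatives for background, scaling, presence and the 1.5-fold rule, and 0 members were 2-fold higher under any of the 17 alternatives. The presence settings left both ratios unchanged by construction, and the 1.5-fold rule could not lower the count. Scaling to GAPDH alone or ACTB alone hardly moved TLE4 (-1.92 and -1.89), both references lying near the positive control on both arrays. The subtraction of single negative controls was added after the data were seen. TLE1 and TLE4 had a negative log2 ratio in all 16 alternatives that give one, from -3.34 to -0.02 for TLE1 and from -2.15 to -0.88 for TLE4. Both genes were present with GFP alone, so this sign was largely fixed by the call. With genes absent on 1 array at their bound, a positive value was not possible for either. AES was negative in 2 of 16. With scaling to the median gene, the 59 genes shifted together and their median log2 ratio went from -0.01 to -0.19. The number of members above background was 3, also with the highest negative control as the limit, and 1 when presence on both arrays was required. No paired analysis was possible because there is a single array for each line, and for that reason no replicate could be left out. Without a filter, TLE2, TLE3, CTBP1 and CTBP2 still gave no ratio, because both values lay below the blanks. Signal over background limits these 4 genes and the hiNOS values of TLE1 and TLE4. For AES the limit is the closeness of its spot to the positive control. The GAPDH and ACTB spots that scale every ratio lay in the same range. Whether they could register a difference in RNA input or labelling between the arrays was not tested.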

Other observations

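The 4 full-length TLE genes hold neighbouring places in the array's list, positions 89 to 92. The log2 density ratios of the places before them were -0.20 for T, 0.07 for TCF7, -0.07 for TCF7L1 and 0.05 for TCF7L2. Those after them were 0.02 for WIF1, -0.09 for WISP1, -0.21 for WISP2 and -0.12 for WNT1. TLE1 (-0.45) and TLE4 (-0.88) were lower than each of these, and TLE2 and TLE3 between them had -0.08 and -0.11. Over all 54 genes absent on both arrays the log2 density ratios ran from -0.41 to 0.36, so TLE1 lay only just below that range. T, WIF1, WISP1 and WISP2, like TLE2 and TLE3, were absent on both arrays, so their ratios compare mostly background. The layout of places on the membrane was not used here, so whether any of these spots adjoin was not tested.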
